A study of Sus scrofa with 6 samples.

Results

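The genes described here are 51 developmental and lineage regulators, chosen by gene symbol from the annotation of the Affymetrix Porcine Genome Array. They are genes of the SOX, FOX, HOX, GATA, TBX, TWIST, SNAI, MSX, DLX, KLF, HAND, HEY, MEF2, NFAT, PRRX, MEOX, TEAD and PAX families together with TCF21, MYC and MYCN, wherever the annotation gave a probe set a single symbol (SOX7, SOX17, SOX18 and FOXM1 were left out). PITX genes, NKX2-5, SRF, ZEB1, ZEB2 and YAP1 were also sought but had no probe set under these symbols and are not analysed here. The array annotation named 49 of them, out of 6765 named genes, and the probe set with the highest mean stands for each gene. SOX13 and MYCN were named only by a supplementary list of the study, which holds probe sets called different between the sexes on these same arrays. The symbols were matched by their first letters, which also took in TBXAS1, the thromboxane synthase, and TWISTNB, a subunit of RNA polymerase I, and these are given apart. The genes were measured in aortic valve leaflets of 3 castrated male and 3 female pigs of mixed breed, 5 months old, with 1 array per pig, after the endothelium had been scraped off with a scalpel. The leaflet is a bulk tissue, so fewer cells of a type and less RNA per cell cannot be told apart. Expression is given as the authors' RMA values, which are on a log2 scale, so that a difference of 1 is 2-fold.

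Transcription factors of these families bind DNA through shared folds, such as the HMG box of SOX factors, the forkhead, the homeodomain and the zinc fingers of GATA and KLF factors, and they set the identity of cells in the embryo. In the forming heart valve, endocardial cells lose their epithelial character under Notch signals and factors such as SNAI1 and GATA4, and the mesenchyme that results expresses factors such as TWIST1, MSX1 and SOX9. The valvular interstitial cell (VIC), the fibroblast-like cell of the leaflet, descends largely from this mesenchyme. The comparison asked which of these genes differed between male and female leaflets.

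The arrays matched their labels at the Y-linked EIF1AY, with 9.98 to 10.07 in males and 3.04 to 3.47 in females. The 25th percentile of all values (5.52) served as the mark of low signal. None of 8 measured VIC and fibroblast markers had a mean under it, whereas 5 of 8 cardiomyocyte markers did, TNNT2, MYL2, ACTC1 and NPPA among them. Endothelial transcripts were still present after scraping, with PECAM1 at 12.61 to 13.69 in males and 11.83 to 12.28 in females. By the same mark, 8 of the 51 genes had low signal (15.7%, against 9.87% of named genes and 24.7% of all probe sets), namely FOXA1, HAND1, HOXA9, HOXB7, HOXD12, MEOX2, PAX3 and SOX6.

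Since SOX13 and MYCN were listed for their difference between the sexes, counts are given for the other 49 genes. The male mean was higher for 23 of the 49 (46.9%, against 58.3% of named genes and 49.1% of all probe sets) and lower for 26, and the median log2 fold change (male minus female) was -0.02, beside -0.01 over all 23999 probe sets and 0.05 over named genes. Male and female arrays were fully separate for 10 of the 49 (20.4%, against 24.7% of named genes and 22.4% of all probe sets), a share near the background. Males were above females in 5 of these (the background was 15.7% of named genes and 11.1% of all probe sets) and below them in 5 (9.08% and 11.4%).

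A gene was called where the adjusted p from limma was under 0.05 and the means were at least 2-fold apart. Before its test the study applied a filter on the coefficient of variation (CV, SD over mean), and its supplement describes this as leaving out values that were too unlike between replicates. The CV filter used here instead keeps probe sets whose CV over the 6 arrays is among the top 10%, and that CV is higher where the sexes differ. With it limma called 183 of the 2412 probe sets kept (7.59%), 4.6% higher and 2.99% lower in males, which was 0.843% of named genes. It called 2 of the 51 genes, SOX13 and MYCN, both higher in males, but both had joined the list through this contrast, so nothing is read from that count. Over all probe sets limma called 0.304% (0.167% higher and 0.138% lower in males, and 0.222% of named genes) and none of the 51. Among the 49 genes named by the array annotation, 10 had a p under 0.05 before adjustment (20.4%, against 17.5% of named genes and 16.9% of all probe sets), and the smallest adjusted p was 0.0757, that of HOXD8. Means were at least 2-fold apart in 3 of the 49 (6.12%, against 2.16% of named genes and 2.18% of all probe sets), namely DLX5, TCF21 and KLF15, each with the lower mean in males.

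**Figure D1:**
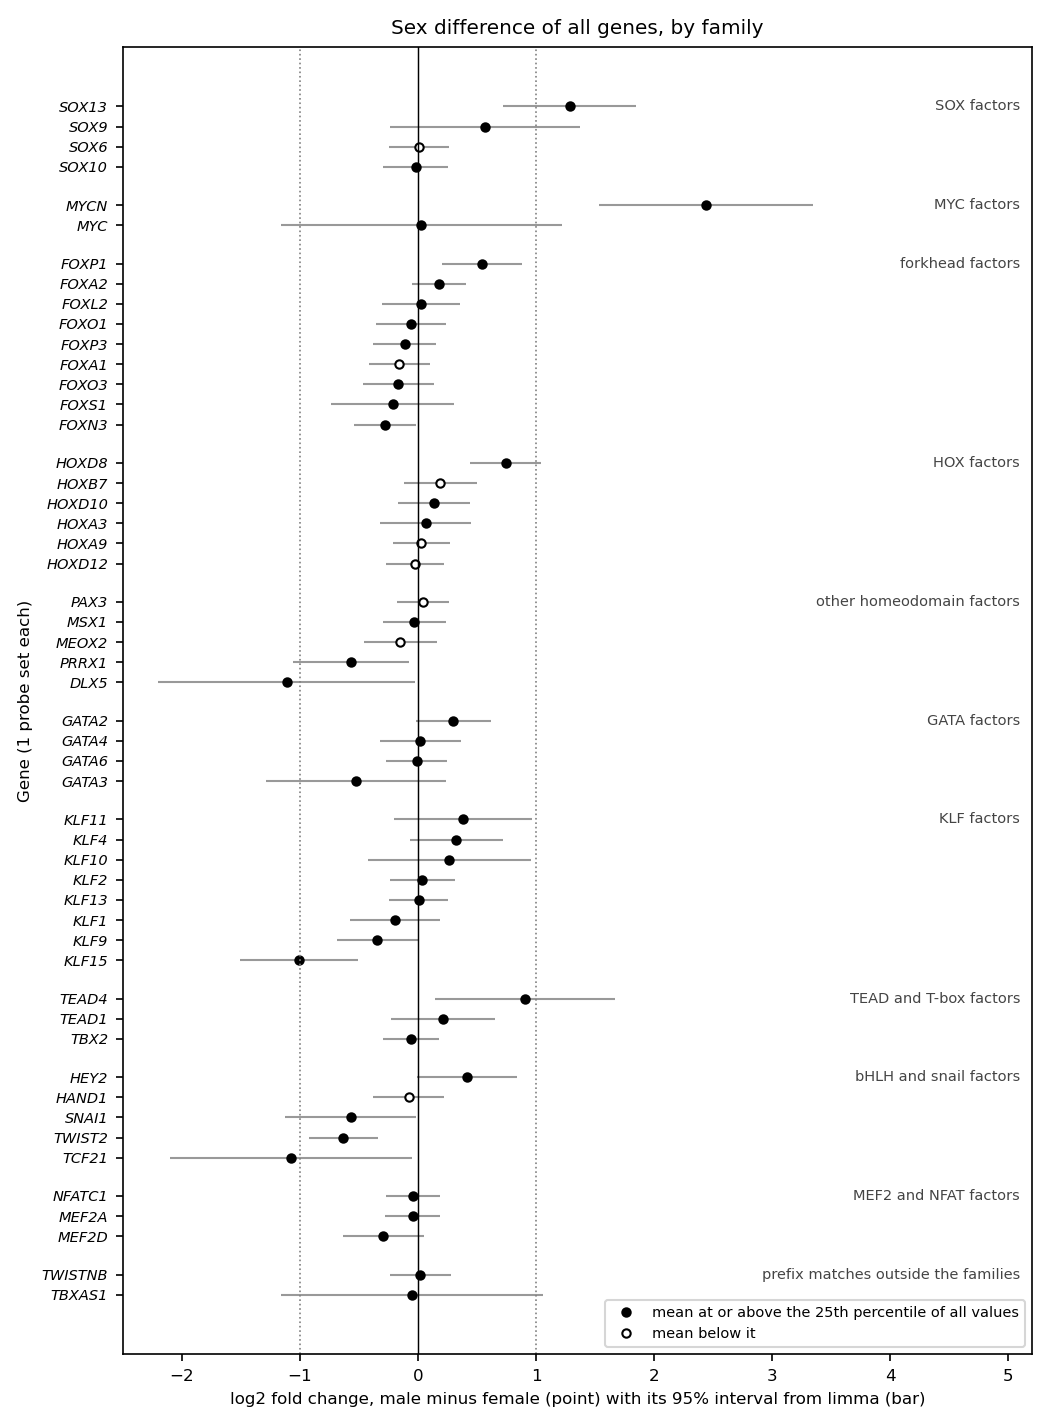
Log2 fold change (male minus female, horizontal axis) of each of the 51 genes, with its 95% interval from limma over all probe sets as a bar. Genes are grouped by family, open circles mark a mean under the 25th percentile of all values, and dotted lines mark 2-fold. MYCN and SOX13 lie beyond 2-fold on the male side and DLX5, TCF21 and KLF15 beyond it on the female side.

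MYCN, a MYC family factor of embryonic and neural progenitor growth, was at 8.28, 8.995 and 7.59 in males and at 6.43, 5.63 and 5.49 in females. The lowest male array lay 1.16 above the highest female array, and female replicate 3 was just under the mark of low signal. The means of 8.29 ± 0.70 in males and 5.85 ± 0.51 in females (SD, n = 3 each) were 5.42-fold apart, a description only, since this difference put MYCN on the list. MYC itself, which growth signals induce in most cells, was at 11.38, 11.76 and 10.49 in males and at 10.53, 12.27 and 10.76 in females. The highest MYC value was in a female and the lowest in a male, and the within-sex SD of 0.81 was the widest of the 51 genes. The mean difference was 0.03, with a 95% interval of -1.16 to 1.22. The CV of MYC, 6.496%, fell just short of the limit of the filter (6.502%), and those of TWIST2 (6.46%) and KLF15 (6.34%) were next below it, with HOXD8 (6.98%) and SOX9 (6.99%) just above.

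SOX13, a SOX D factor with roles in lymphocyte development, was at 8.24, 7.89 and 7.52 in males and at 6.27, 6.53 and 6.9995 in females. The nearest arrays of the sexes were 0.52 apart and the means 2.44-fold, again without a test since the difference chose the gene. SOX6, of the same SOX D group and a partner of SOX9 in cartilage, had low signal in both sexes. SOX9, which drives cartilage matrix genes, was at 8.002, 8.59 and 8.92 in males and at 8.62, 7.47 and 7.72 in females. Female replicate 1 lay within the male range, and limma put the difference at 0.57 (95% interval -0.23 to 1.37, adjusted p = 0.445). SOX10, the factor of neural crest and glia, differed by -0.02.

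**Figure D2:**
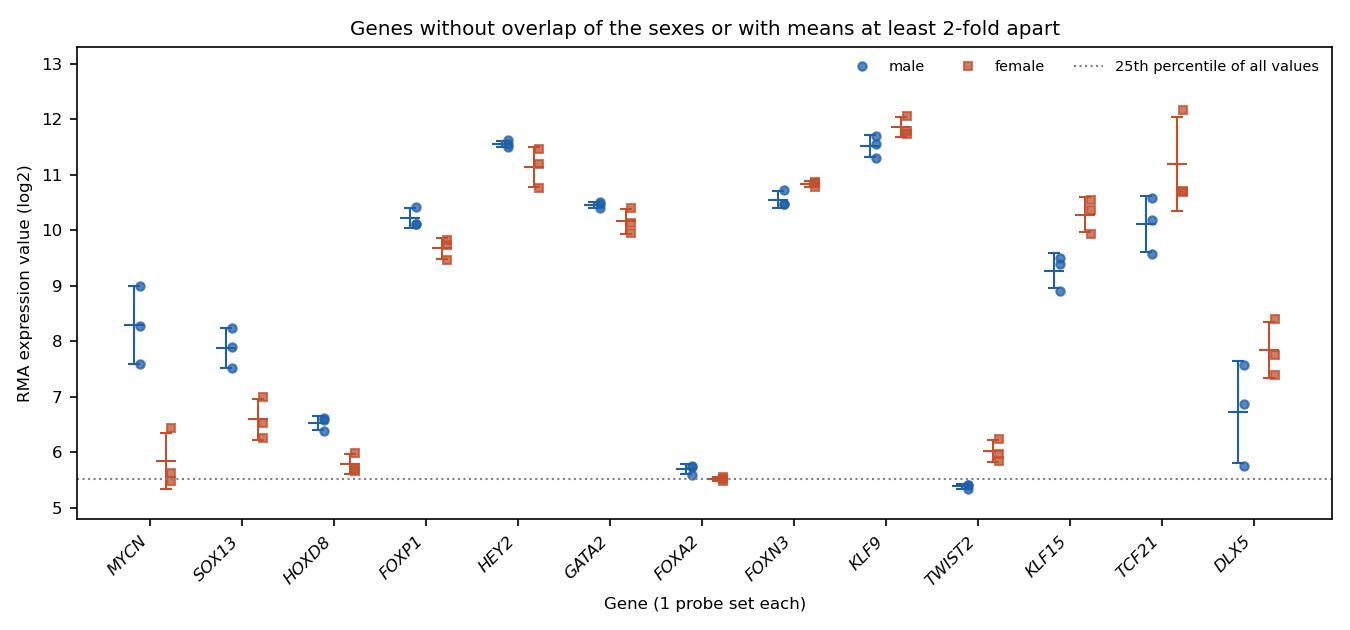
RMA value (log2, vertical axis) on every male array (circles) and female array (squares), for genes whose sexes were fully separate or whose means were at least 2-fold apart. Bars show mean and SD per sex, and levels compare within a gene only. Males lie above females from MYCN to FOXA2 and below them from FOXN3 to TCF21, and DLX5 is the one gene shown whose sexes overlap.

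Of 9 forkhead genes, the male mean was above the female mean in 3 and below it in 6, and none was called. FOXP1, a repressor with roles in heart and lymphocyte development, was at 10.43, 10.11 and 10.11 in males and at 9.73, 9.82 and 9.47 in females. Each male array exceeded each female array, and limma put the difference at 0.54 ± 0.14 (standard error), with an adjusted p of 0.162. FOXN3, a repressor linked to cell cycle checkpoints, was at 10.47, 10.47 and 10.72 in males and at 10.87, 10.77 and 10.85 in females. Its sexes were separate too, though by 0.05 at the nearest arrays (difference -0.28, adjusted p from limma 0.275). FOXO1, which AKT keeps out of the nucleus, was at 11.86, 11.71 and 11.66 in males and at 11.84, 11.61 and 11.96 in females, and the sexes overlapped (95% interval -0.36 to 0.24). The differences of FOXO3 (-0.17), FOXS1 (-0.21), FOXP3 of regulatory T cells (-0.11), FOXL2 of the ovary (0.03) and FOXA1 of endoderm (-0.16) were also small. FOXA2, the other endoderm factor, was separate by 0.04, with means of 5.69 in males and 5.52 in females, close to the mark of low signal.

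Of 6 HOX genes, which pattern the body axis, HOXD8 differed most. It was at 6.59, 6.61 and 6.39 in males and at 5.70, 5.67 and 5.99 in females, with 0.40 between the nearest arrays of the sexes. limma put the difference at 0.74 ± 0.13 (standard error), with an adjusted p of 0.0757 over all probe sets and of 0.131 with the CV filter. With each array left out in turn, the adjusted p over all probe sets ranged from 0.0550 to 0.244. HOXD10, of the same HOXD cluster, was at 8.09, 8.15 and 8.18 in males and at 8.11, 7.75 and 8.14 in females, and its sexes overlapped (difference 0.14). HOXD12, farther along the cluster, had low signal, with means of 4.38 in males and 4.41 in females. HOXA3 differed by 0.07, and HOXA9 and HOXB7 had low signal, at most 3.62 on any array.

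Among 5 other homeodomain genes, DLX5, a factor of bone and cartilage development, had the lowest log2 fold change of the 51. It was at 5.75, 7.58 and 6.87 in males and at 7.39, 7.75 and 8.39 in females. Male replicate 2 lay above female replicate 1, so the sexes overlapped. The difference of -1.11 (95% interval -2.20 to -0.02, adjusted p from limma 0.290) was -0.62 without male replicate 1 and -1.53 without male replicate 2. PRRX1, a factor of mesenchyme and fibroblasts, was at 10.17, 10.45 and 10.96 in males and at 10.90, 11.13 and 11.25 in females. Male replicate 3 lay within the female range and the other males below it (difference -0.57, adjusted p from limma 0.244). MSX1, a factor of the valve mesenchyme, was at 8.71, 8.70 and 8.47 in males and at 8.65, 8.75 and 8.57 in females, with a 95% interval of -0.30 to 0.24 for the difference. PAX3 of the neural crest and MEOX2 of somites and vessels had low signal.

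Of 4 GATA genes, none was called. GATA4, which the valve mesenchyme needs to form, was at 10.26, 10.30 and 10.61 in males and at 10.59, 10.22 and 10.30 in females, with the sexes fully mixed (95% interval -0.32 to 0.37). GATA6, its relative in heart and vascular smooth muscle, was at 11.41, 11.38 and 11.51 in males and at 11.59, 11.40 and 11.34 in females, mixed as well (95% interval -0.27 to 0.24). GATA2, a factor of endothelial and blood cells, was at 10.51, 10.40 and 10.47 in males and at 10.40, 9.95 and 10.13 in females. Its sexes were separate by only 0.0007, and the difference was 0.30 here and 0.35 at a second probe set. GATA3, a factor of T cells and epithelia, was at 8.39, 8.63 and 9.26 in males and at 8.83, 9.92 and 9.11 in females. Female replicate 2 was highest at this and at 2 other GATA3 probe sets, whose differences were -0.52, -0.51 and -0.49 with none called, while a further probe set near the mark of low signal differed by -0.03.

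Of 8 KLF genes, the male mean was above the female mean in 5. KLF15, which glucocorticoids induce and which acts in metabolism and heart muscle, was at 8.91, 9.39 and 9.51 in males and at 10.37, 9.93 and 10.54 in females. All males were below all females, by 0.42 at the nearest arrays. limma put the difference at -1.01 ± 0.21 (95% interval -1.51 to -0.51), with an adjusted p of 0.115 that ranged from 0.0747 to 0.294 as each array was left out. KLF9, also a target of glucocorticoids and of thyroid hormone, was at 11.29, 11.56 and 11.70 in males and at 11.79, 12.06 and 11.73 in females. It was lower on every male array, but by 0.03 at the nearest (difference -0.34, adjusted p from limma 0.299).

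KLF4, which blood flow induces in endothelial cells, was at 12.78, 12.71 and 12.19 in males and at 12.31, 12.23 and 12.17 in females. Male replicates 1 and 2 stood above the other arrays (difference 0.32, adjusted p from limma 0.378). KLF2, also induced by flow, was at 6.84, 6.84 and 6.90 in males and at 6.90, 6.62 and 6.95 in females, and overlapped (difference 0.04). KLF11, which TGF-β induces, was at 7.29, 7.68 and 6.98 in males and at 7.39, 6.81 and 6.61 in females. It overlapped at female replicate 1, with a difference of 0.38 here and of 0.35 at a second probe set. KLF10 (0.27), KLF13 (0.01) and KLF1 of red blood cells (-0.19) overlapped as well.

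TEAD factors bind DNA for YAP, the coactivator of the Hippo pathway. TEAD4 was at 9.61, 8.93 and 8.62 in males and at 7.95, 8.73 and 7.75 in females, and only male replicate 3 and female replicate 2 crossed. limma put the difference at 0.91 ± 0.32 (standard error), with an adjusted p of 0.238 over all probe sets and of 0.142 with the CV filter. TEAD1 was at 8.12, 8.32 and 8.61 in males and at 8.38, 8.23 and 7.81 in females, overlapping, with a difference of 0.21 here and of -0.21 at a second probe set with low signal. TBX2, a T-box repressor at the sites where valves form, differed by -0.06 (95% interval -0.30 to 0.18).

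Of 5 basic helix-loop-helix and snail genes, 4 had the lower mean in males. TCF21, a factor of epicardial cells and fibroblasts, was at 10.19, 10.57 and 9.57 in males and at 10.69, 12.16 and 10.72 in females. The sexes were 0.11 apart at the nearest arrays and female replicate 2 stood far above the rest. The difference of -1.08 (95% interval -2.10 to -0.05, adjusted p from limma 0.278) was -0.59 without that array. TWIST2, a repressor of mesenchymal and dermal cells, was at 5.34, 5.41 and 5.42 in males and at 5.84, 5.98 and 6.24 in females. The sexes were 0.43 apart (difference -0.63 ± 0.12, adjusted p from limma 0.103), but every male array was under the mark of low signal.

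SNAI1, which switches off epithelial genes as cells become mesenchymal, was at 7.59, 8.16 and 8.02 in males and at 8.94, 8.13 and 8.41 in females. Female replicate 2 lay within the male range (difference -0.57, adjusted p from limma 0.287), and a second probe set differed by -0.28. HEY2, a repressor that Notch induces, was at 11.62, 11.50 and 11.55 in males and at 11.47, 11.19 and 10.75 in females. Every male array was higher, by 0.03 at the nearest (difference 0.42, adjusted p from limma 0.304), while the other HEY2 probe sets differed by -0.06 and 0.48. HAND1, a factor of the embryonic heart, had low signal, at 4.13, 4.37 and 4.46 in males and 4.55, 4.35 and 4.30 in females.

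MEF2 and NFAT factors act downstream of calcium signals, and the 3 measured overlapped between the sexes. MEF2A was at 11.74, 11.66 and 11.79 in males and at 11.75, 11.73 and 11.86 in females. MEF2D was at 9.83, 9.82 and 9.94 in males and at 9.86, 10.26 and 10.35 in females, with female replicate 1 among the males (difference -0.29, 95% interval -0.63 to 0.05). NFATC1, which in the embryo marks the endocardial cells of the valves, was at 6.86, 6.75 and 6.74 in males and at 6.74, 6.86 and 6.88 in females. Of the genes outside the families, TWISTNB differed by 0.02 and TBXAS1 by -0.05, the second with male arrays from 5.18 to 7.24.

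**Figure D3:**
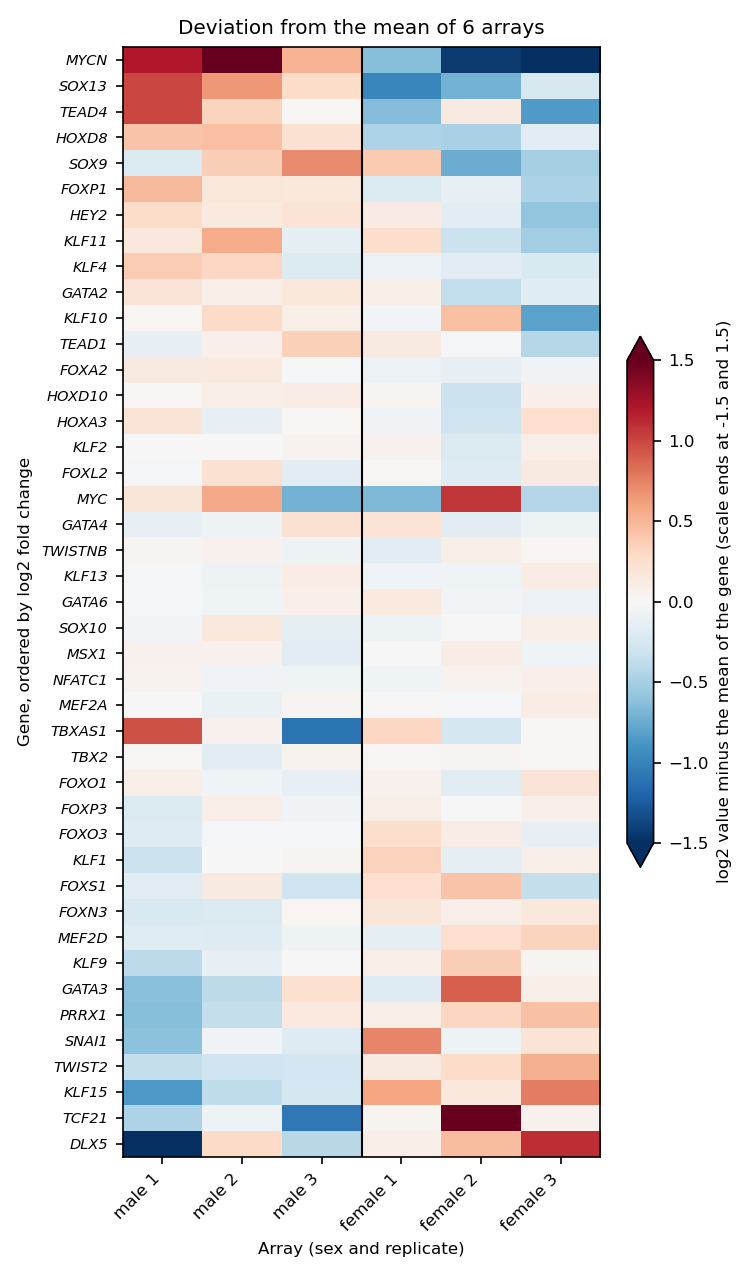
Log2 value minus the mean of the gene over the 6 arrays (color, scale ending at -1.5 and 1.5) for the genes above the mark of low signal, ordered by log2 fold change, with male arrays left and female arrays right of the line. MYC, TCF21 and GATA3 are highest in female replicate 2, and TBXAS1 and TCF21 are lowest in male replicate 3.

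The spread between animals of one sex was close to that of other genes, with a median within-sex SD of 0.167 against 0.157 over named genes and 0.168 over all probe sets. After MYC, the widest were TBXAS1 (0.76), DLX5 (0.74), TCF21 (0.70) and MYCN (0.61), and NFATC1 (0.07), GATA6 (0.10) and MSX1 (0.12) were among the narrow ones. The CV filter kept 6 of the 49 genes (12.2%, against 7.42% of named genes and 10% of all probe sets), namely DLX5, HOXD8, SOX9, TBXAS1, TCF21 and TEAD4, besides MYCN and SOX13, which were listed through the study's filtered test. Female replicate 3 was the array farthest from the mean of its sex for 13 genes (25.5%, against 15.7% of all probe sets), and female replicate 2 for 9 (17.6%, against 26.3%). Besides the probe sets that stand for them, 19 of the genes had 23 others, some given above, of which 18 differed in the same direction and none was called.

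Genes that work with these factors gave a similar picture. Of 115 listed partners, regulators and targets, 56 were measured, 30 with the male mean above and 26 with it below the female mean (median difference 0.03). Male and female arrays were separate for 10 of the 56 (17.9%, against 24.7% of named genes and 22.4% of all probe sets). limma called 1 with the CV filter (1.79%, against 0.843% of named genes) and none over all probe sets (against 0.222% of named genes). Before adjustment, 10 had a p from limma under 0.05 (17.9%, against 17.5% of named genes and 16.9% of all probe sets). The called gene was ACAN, a proteoglycan and target of SOX9, at 8.35, 9.61 and 9.93 in males and at 11.51, 11.53 and 11.73 in females. In males it fell by 2.29 (log2), with an adjusted p from limma of 0.00990 after the CV filter and of 0.0691 over all probe sets. The study had already named ACAN as different between the sexes on these arrays, so nothing is read from that call. The other SOX9 targets measured differed by -0.26 (COL11A1), -0.21 (COL2A1) and 0.03 (HAPLN1).

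The Notch ligand JAG1, upstream of HEY2, was at 12.57, 12.30 and 11.87 in males and at 11.30, 11.78 and 11.32 in females, separate by 0.09 (difference 0.78, adjusted p from limma 0.167). HES1, another Notch target, differed by -0.38 with overlap. MEIS1, a DNA-binding partner of HOX proteins, was at 8.69, 8.37 and 8.89 in males and at 9.29, 9.88 and 9.29 in females, lower on every male array (difference -0.83, adjusted p from limma 0.147), whereas MEIS2 differed by 0.23 with overlap. Of the TEAD cofactors, VGLL3 (-0.62, every array of both sexes under the mark of low signal) and VGLL4 (-0.27) were lower on every male array without a call. The YAP and TEAD targets CYR61 (0.09) and ANKRD1 (0.42) overlapped. ID2, an inhibitor of helix-loop-helix factors, was at 7.82, 8.31 and 8.06 in males and at 10.12, 8.02 and 10.67 in females, so female replicate 2 lay with the males (difference -1.54, adjusted p from limma 0.276). Its relative ID4 was higher on every male array (difference 0.45, adjusted p from limma 0.168), and ID1 (0.28) and ID3 (-0.11) overlapped. PPP3CC, a catalytic subunit of the NFAT activator calcineurin, was higher on every male array (0.43) and the calcineurin inhibitor RCAN1 lower on every male array (-0.37), neither called. The sexes overlapped for each of the 8 measured SRF partners and targets and the 8 FOXO inputs and targets.

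Markers of cell types were compared between the sexes on the same arrays, and none was called over all probe sets. Of 10 measured endothelial markers, 9 had the higher mean in males, as did 58.3% of named genes, and the median difference was 0.99. Male and female arrays were fully separate for 5 of the 10, against 24.7% of named genes. ICAM2 and ESAM were called with the CV filter (0.843% of named genes were), but none of the 10 was called over all probe sets. The study lists ICAM2, ESAM and KDR as different between the sexes on these same arrays, so nothing is read from these counts. The probe set that stood for KDR here had low signal. The average level of the 10 endothelial markers was 10.08, 9.77 and 9.15 in males and 8.62, 9.18 and 8.55 in females. TEAD4 and FOXP1 ranked the arrays in that order within each sex, but so did MSX1, whose means differed by -0.03. SOX13, HEY2 and GATA2 were also highest in male replicate 1, as were KLF4 and TBXAS1, whose sexes overlapped. Among females, HEY2 and GATA2 were highest in replicate 1 and SOX13 in replicate 3, the array with the lowest endothelial average. Of 8 VIC and fibroblast markers, 7 had the lower mean in males (median -0.20). Their average was 12.13, 12.28 and 12.41 in males and 12.38, 12.52 and 12.48 in females. Male and female arrays were fully separate for 1 of the 8, against 24.7% of named genes, and none was called in either fit. Of 4 cartilage markers, 3 had the lower mean in males (median -1.03), with an average of 8.86, 9.55 and 10.14 in males and 10.63, 10.47 and 10.69 in females. Male and female arrays were fully separate for 2 of the 4. ACAN, already named by the study, and COMP were called with the CV filter, as were 0.843% of named genes. None of the 4 was called over all probe sets. PRRX1 and KLF15 ranked the male arrays as the cartilage average and the VIC and fibroblast average both did, and DLX5 was lowest in male replicate 1. That male order was not particular to them: SOX9 and TEAD1, with higher means in males, had it too, as did GATA3 and KLF9, with lower ones. Among females KLF15 followed the order of the cartilage average, while PRRX1 and DLX5 followed neither. The median difference was -0.05 for 5 macrophage markers and 0.07 for 8 lymphocyte markers, each of which overlapped. It was -0.06 for 6 smooth muscle markers and -0.10 for 4 nerve and melanocyte markers, again with overlap of each. For 8 cardiomyocyte markers and for 4 adipocyte markers it was -0.02, with the sexes separate for 1 marker of each list. The part of these cell types in the differences of single genes was not tested.

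**Figure D4:**
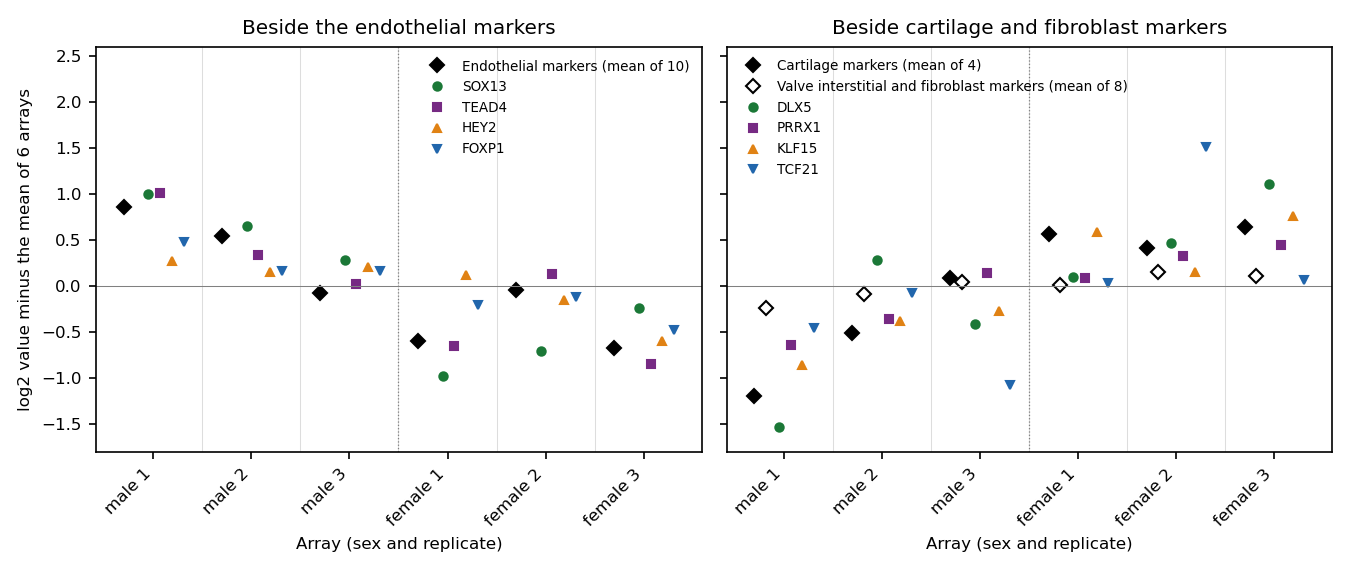
Log2 value minus the mean over 6 arrays (vertical axis) on each male and female array, for SOX13, TEAD4, HEY2 and FOXP1 beside the mean of 10 endothelial markers (left) and for DLX5, PRRX1, KLF15 and TCF21 beside the means of 4 cartilage and 8 VIC and fibroblast markers (right). The genes were picked after their values were seen, and male replicate 1 is the highest array for the endothelial mean and the lowest for the cartilage mean, DLX5, PRRX1 and KLF15.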

How the data were processed

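RNA from scraped aortic valve leaflets (400 ng labelled for each pig) was read on 6 Affymetrix Porcine Genome Arrays. The deposited log2 values came from RMA, run by the authors in R 2.12.0 (background correction, normalization between arrays and a summary per probe set), and were not normalized further. Raw intensities were not used. Precision is limited by how many arrays there are. The platform annotation gave 1 gene symbol for 10069 probe sets, several for 198 and none for 13732. Of 72 annotated probe sets of the genes described, 70 were found by Entrez ID in RefSeq (Sscrofa11.1), all under the same symbol.

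Male minus female differences were fitted with limma 3.58.1 (lmFit and eBayes, no covariate) in R 4.3.3, over the 23999 probe sets that are not controls and over the 2412 that a CV filter kept. The methods of the study do not name the share its filter kept, and keeping the 10% with the highest CV over the 6 arrays was taken from an earlier account of these data. Calls needed an adjusted p (Benjamini-Hochberg) below 0.05 and 2-fold. Intervals were not adjusted. The p-values from limma set a difference against the spread between these pigs, with variances pooled in part over the probe sets fitted. The genes, lists and tests were chosen with earlier results of these data known. Genes with values on every array were those called, the 10 largest rises and 10 largest falls above the 25th percentile, and genes picked for their role in valve development; others singled out here were chosen after their values were seen. The fits were tested on simulated data. Alternatives were a filter keeping 25%, CV on linear values, no minimum fold, an intensity trend, centred arrays, no low values, other probe sets, a replicate block and each array left out. matplotlib 3.10.9 (Python 3.11.15) drew the figures.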

Additional observations from a re-analysis of the deposited data

How the results depend on the processing

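With the CV filter, 2 of the 51 genes (MYCN and SOX13) were called, as were 0.843% of named genes. Both had joined the list through this contrast, so how their calls held is description only. Of the other 49 genes, 0 were called. The count for the 51 was also 2 with 25% of probe sets kept, CV on linear values or no minimum fold. Centred arrays, any probe set of a gene or a replicate block gave 2 as well. An intensity trend gave 1. Leaving out 1 array gave 1 to 2: MYCN was called each time, and SOX13 was lost without male replicate 1, male replicate 2 or any 1 female array. Over all probe sets the count was 0, and 0 again without a minimum fold, with a trend, with centred arrays, without low values and with any probe set. Leaving out 1 array gave 0 to 2, since MYCN and SOX13 were called without male replicate 3. The labels do not tie equal replicate numbers together. Correlations of deviations were -0.10, 0.01 and 0.27 for equal numbers and -0.22 to 0.21 for unlike ones, too few to decide whether the arrays were paired. The replicate block gave 1 call over all probe sets (MYCN).

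The median log2 fold change moved by less than its replicate spread (0.04) under each alternative. Of 29 genes followed singly, none changed direction under a trend, centring or a block. Leaving out 1 array turned 7 small differences: FOXO1 (-0.16 to 0.018), GATA4 (-0.088 to 0.13), GATA6 (-0.061 to 0.061), HAND1 (-0.15 to 0.016), KLF2 (-0.064 to 0.10), MSX1 (-0.072 to 0.050) and MYC (-0.30 to 0.57). At another probe set, HEY2 (-0.065) and TEAD1 (-0.21) had the opposite sign. The causes were not tested. With 3 arrays a sex, small differences could not be resolved.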
